A study of Mus musculus with 12 samples.

Results

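Expression of 9 genes of hepatic glucose production and glucose entry was followed by RNA-seq in livers of young, middle-aged and aged mice, which were 3, 12 and 18 months old; each age had 4 livers. The genes, chosen by symbol and matched by Ensembl identifier in the GENCODE M21 annotation of GRCm38, were Pcx, Pck1, Fbp1, G6pc, Slc37a4, Ppargc1a, Pklr, Gckr and Slc2a2, and all 9 were found among the 53465 genes of the deposited table. Each library came from 1 C57BL/6N animal according to the labels. The study's methods give male mice fed ad libitum, but the time of day and the feeding state at collection are not given in the sources used here. Those methods describe RNA preparation for young and old livers only, while elsewhere the study draws its RNA-seq data on the 3 ages from an atlas, so the origin and preparation of these livers cannot be stated with certainty.

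Between meals the liver makes glucose from lactate, glycerol and amino acids. Gluconeogenesis runs largely through the enzymes of glycolysis in reverse and bypasses the irreversible glycolytic reactions with enzymes of its own: pyruvate carboxylase (Pcx) and phosphoenolpyruvate carboxykinase (Pck1) turn pyruvate into phosphoenolpyruvate, fructose bisphosphatase (Fbp1) acts further up, and glucose-6-phosphatase (G6pc), fed by the transporter Slc37a4, releases free glucose. Glucagon and glucocorticoids raise transcription of Pck1 and G6pc and insulin lowers it, with the coactivator PGC-1 alpha (Ppargc1a) as a mediator of the fasting signal; in the opposite direction glucose enters through GLUT2 (Slc2a2), is phosphorylated under the control of a regulatory protein (Gckr), and reaches pyruvate through liver pyruvate kinase (Pklr), a gene induced by carbohydrate feeding.

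The promoter windows of the 4 enzymes on which most of the results turn are shown first, since hormones act on several of these genes through sites close to the start of transcription. RefSeq windows (GRCm38.p6) ran from 250 bases before to 50 bases after an annotated start; the 9 genes had 13 such windows. Capitals mark exact matches on either strand to 8 short motifs that were searched.
Pck1, chr2:173152823-173153122, plus strand: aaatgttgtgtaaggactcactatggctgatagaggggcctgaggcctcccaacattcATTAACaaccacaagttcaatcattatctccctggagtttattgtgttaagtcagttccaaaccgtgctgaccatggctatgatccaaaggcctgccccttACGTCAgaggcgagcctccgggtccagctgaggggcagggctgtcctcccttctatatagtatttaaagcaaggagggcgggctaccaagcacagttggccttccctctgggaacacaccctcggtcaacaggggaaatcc
G6pc, chr11:101367466-101367765, plus strand: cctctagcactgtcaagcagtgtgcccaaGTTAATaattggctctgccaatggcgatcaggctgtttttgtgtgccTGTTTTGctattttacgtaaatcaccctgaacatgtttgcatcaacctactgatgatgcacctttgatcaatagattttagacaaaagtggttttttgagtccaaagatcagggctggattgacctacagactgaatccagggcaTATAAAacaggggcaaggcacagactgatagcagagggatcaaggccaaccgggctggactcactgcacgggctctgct
Fbp1, chr13:62888233-62888532, minus strand: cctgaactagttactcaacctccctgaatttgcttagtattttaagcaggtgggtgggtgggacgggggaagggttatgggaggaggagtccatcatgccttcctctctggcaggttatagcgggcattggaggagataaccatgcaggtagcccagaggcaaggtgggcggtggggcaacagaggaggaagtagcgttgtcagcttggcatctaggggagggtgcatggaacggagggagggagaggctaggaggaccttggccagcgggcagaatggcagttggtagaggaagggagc
Pklr, chr3:89136373-89136672, plus strand: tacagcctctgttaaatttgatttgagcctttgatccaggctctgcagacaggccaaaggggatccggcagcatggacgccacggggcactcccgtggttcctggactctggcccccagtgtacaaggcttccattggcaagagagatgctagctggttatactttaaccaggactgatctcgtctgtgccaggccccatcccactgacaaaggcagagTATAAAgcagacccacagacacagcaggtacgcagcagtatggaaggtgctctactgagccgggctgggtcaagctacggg

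In the Pck1 window the cyclic AMP response element core ACGTCA lay at position -91 counted from the start, and a reverse-strand HNF1 half-site GTTAAT at -192. The same core was found in the Ppargc1a window at -50 and in both upstream windows of Slc37a4, which overlap and share this 1 site, and in 7.51% of 32851 RefSeq windows. The insulin response element core TGTTTTG stood in the G6pc window at -174 and in that of Gckr at -83, against 6.28% of all windows. GTTAAT was present for Pck1, G6pc and Gckr and in 7.1% of windows, and the TATA box TATAAA for G6pc at -29, for the downstream start of Pklr at -31 and for the most downstream start of Slc37a4 at -32, against 13.62%. An E-box CACGTG (7.15% of windows) was found only for Pcx among the 9 genes, and the glucocorticoid receptor half-site TGTTCT (18.97%) only for Gckr. None of the 13 windows held TGTTTAC, a FOXO site (3.65%), or AAAGTCC, an HNF4 core (4.21%), and the Fbp1 window printed above held no match to any of the 8. Within a window no match overlapped another, and a match describes letters only.

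Counts assigned to genes ranged from 8124312 to 10527159 per library, and 3 counts, the floor below which a gene cannot be told from absence, corresponded to at most 0.369 CPM (counts scaled to a common library total). The 9 genes took between 0.3249 and 0.4808% of these counts, and each was counted in every liver, from 28 reads for the lowest value of Ppargc1a to 20480 for the highest of Pck1. Young replicate 3 and middle-aged replicate 1 had 22284 and 19982 genes with a count, more than any other library, and young replicate 2 had 19.16% of its counts from mitochondrial genes against at most 10.682% elsewhere. The relative abundances of 31 synthetic spike-in transcripts divided the libraries in 2: replicates 1 and 2 at each age, called set A here, and replicates 3 and 4, called set B. Libraries of one set correlated at 0.997 or more and libraries of different sets at 0.925 or less, a split that the labels do not mention. The summed level of hepatocyte markers was between 713791.9 and 969562.1 normalised counts per liver. Kidney markers, from the other organ that makes glucose, summed to at most 14.2, and adipocyte markers to at most 24.9 apart from 1 middle-aged liver at 186.3. Exocrine pancreas markers summed to 258.7 to 794.8 and small intestine markers to 373.5 to 869.5, nearly all of it from 1 gene in each list.

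Per kilobase of exon, Fbp1 was the most abundant of the 9 transcripts at 6236 ± 774.6 normalised counts (SD, n = 12 livers), followed by Pck1 at 3839 ± 1800. In young livers alone Fbp1 (5518 ± 224.6, n = 4) and Pck1 (5416 ± 1268) did not differ beyond their spread. G6pc (911.2 ± 350.4), Pcx (877.3 ± 90.66) and Pklr (688.7 ± 244.3) came next on this scale and did not differ from one another beyond their spread. Slc37a4 (450.1 ± 71.58), Slc2a2 (420.7 ± 97.22) and Gckr (306.6 ± 29.71) were lower, the first of these being inseparable from the second. Ppargc1a, a regulator rather than an enzyme, stood far below at 9.942 ± 4.126.

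The question put to these genes was whether hepatic glucose genes differ between ages. In aged against young livers, 1 of 9 passed the test (Pcx, higher), where 3.58% of the 13527 genes tested passed and 1.87% did so as higher. In middle-aged against young livers 2 of 9 passed (Fbp1 and Pklr, both higher), against 6.41% of 11333 genes and 3.51% in that direction. Between aged and middle-aged livers 0 of 9 passed in DESeq2, edgeR or limma, where DESeq2 called 1.14% of 10236 genes, and 1 of 9 (Fbp1) had an unadjusted p under 0.05, as did 9.94% of genes. Across the 3 ages together Fbp1 and Pcx passed the likelihood ratio test, against 6.96% of 12430 genes. These calls are those of DESeq2. With edgeR 0 of 9 passed in every one of these comparisons, and with limma 0 of 9 passed for aged against young and across the 3 ages. Unless stated otherwise, p-values below are DESeq2 values adjusted by Benjamini-Hochberg over all genes tested. They set a difference between ages against the spread between single animals, in a fit with age as its only term. That spread includes any difference between the spike-in sets.

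**Figure D1:**
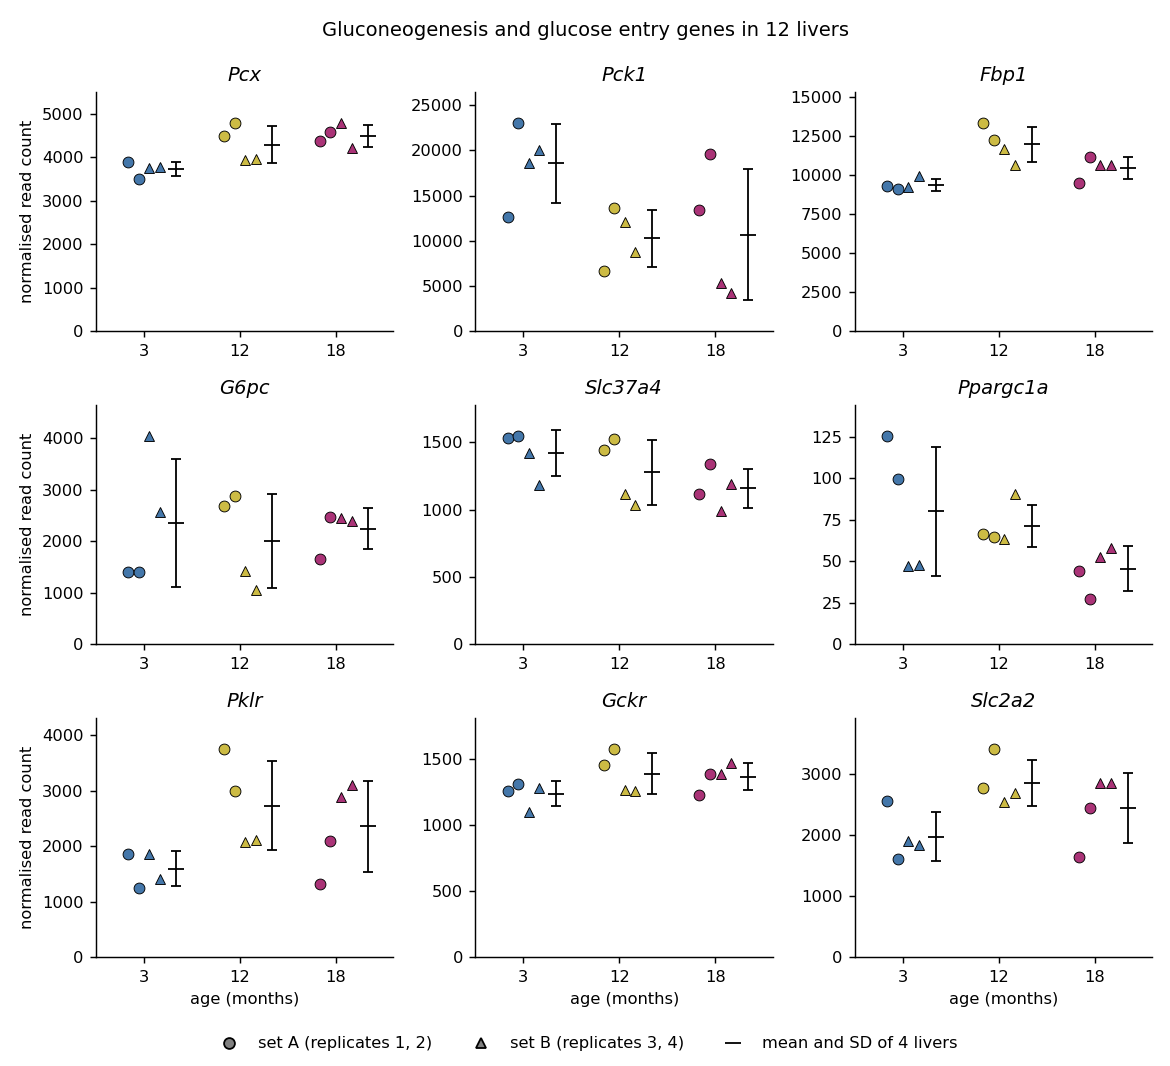
Normalised read count of each of the 9 genes (vertical axes, each from 0) in 12 livers at 3, 12 and 18 months (horizontal axes), with circles for set A, triangles for set B and a bar for the mean ± SD of 4 livers. Within an age the highest liver is 1.09 to 1.25 times the lowest for Pcx and Fbp1, and 1.42 to 4.62 times for Pck1, G6pc, Ppargc1a and Pklr, often along the line between the sets.

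Pyruvate carboxylase, Pcx (ENSMUSG00000024892, chromosome 19, 4510472 to 4621752, 25 exonic blocks), carries pyruvate into the mitochondrial start of the pathway. Its normalised counts were 3893, 3500, 3751 and 3772 in young replicates 1 to 4, 4495, 4786, 3931 and 3948 in middle-aged and 4375, 4583, 4784 and 4220 in aged livers. Every middle-aged and every aged liver thus lay above the highest young liver, and the 2 older ages overlapped. Pcx rose by 0.27 ± 0.08 on the log2 scale (SE; 1.2-fold) from young to aged, with an adjusted p of 0.0305. From young to middle-aged the difference was 0.20 ± 0.08 with an adjusted p of 0.104. That difference was 0.33 ± 0.16 in set A but 0.06 ± 0.11 in set B, whose middle-aged livers lay just above the highest young liver. From middle-aged to aged it was 0.07 ± 0.08 (adjusted p 0.893). Across the 3 ages the adjusted p was 0.0405. The estimate for aged against young was 0.28 within set A and 0.26 within set B, neither passing alone with 2 livers per age. It stayed between 0.24 and 0.30 when any 1 liver was left out, but the adjusted p then rose to 0.16 without young replicate 2, 0.124 without young replicate 3, 0.0687 without young replicate 4, 0.0509 without middle-aged replicate 1, 0.12 without aged replicate 2 and 0.175 without aged replicate 3; edgeR gave 0.149 and limma-voom 0.128.

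Pck1 (ENSMUSG00000027513, chromosome 2, 173153048 to 173159273), which makes phosphoenolpyruvate in the cytosol and is the classical hormone-controlled gene of the pathway, had the widest spread of the 9. Young livers held 12672, 23028, 18591 and 19994 normalised counts, middle-aged livers 6629, 13604, 12058 and 8754, and aged livers 13403, 19618, 5365 and 4249. Young replicate 1 fell within the middle-aged range, and the aged group split into a high set A pair and a set B pair that was lowest of all 12 livers. The mean level was 18570 ± 4347 (SD, n = 4) at 3 months, 10260 ± 3155 at 12 months and 10660 ± 7232 at 18 months. Neither the difference of -0.86 ± 0.46 (log2, SE) for middle-aged nor that of -0.80 ± 0.46 for aged against young passed the test, with adjusted p of 0.26 and 0.403 and 95% intervals of -1.76 to 0.05 and -1.70 to 0.10. Fits within 1 set, here and for the genes below, rest on only 2 livers per age. The split was also made after seeing the data, so p-values from such fits are less certain than their size implies. Within set B alone, aged livers lay 2.01 below young ones on the log2 scale (-2.01 ± 0.15, adjusted p 7.19e-37), whereas within set A the difference was -0.11 ± 0.56 (adjusted p 1.0). The test of that difference between the sets gave an adjusted p of 0.158. Middle-aged livers were lower than young ones by a like amount in both, -0.82 ± 0.56 in set A and -0.90 ± 0.15 in set B, the latter with an adjusted p of 5.93e-07.

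Fbp1 (ENSMUSG00000069805, chromosome 13, 62864753 to 62888282, minus strand) hydrolyses fructose bisphosphate and had, together with Pcx, the narrowest spread among livers of the same age. The counts were 9283, 9106, 9225 and 9955 in young livers, 13335, 12244, 11662 and 10654 in middle-aged livers and 9484, 11134, 10643 and 10629 in aged livers. All 4 middle-aged livers were above all 4 young livers, and the aged livers lay between, overlapping both. Fbp1 rose by 0.35 ± 0.08 (log2, SE; 1.27-fold) from young to middle-aged, with an adjusted p of 0.00107, and its adjusted p across the 3 ages was 0.00294. Aged livers differed from young ones by 0.16 ± 0.08 (adjusted p 0.314) and from middle-aged ones by -0.19 ± 0.08 (0.305). The rise held its call without any 1 liver, between 0.29 and 0.40, but not without young replicate 3 and middle-aged replicate 1 together. It was 0.48 in set A and 0.21 in set B without passing in either, and edgeR gave an adjusted p of 0.0694.

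G6pc (ENSMUSG00000078650, chromosome 11, 101367561 to 101377903) encodes the catalytic subunit that releases glucose from its phosphate in the endoplasmic reticulum. Its counts were 1408, 1411, 4038 and 2560 in young livers, 2685, 2877, 1420 and 1044 in middle-aged and 1647, 2471, 2441 and 2396 in aged livers. The ages overlapped in every pairing. In young livers both set B values were above both set A values, in middle-aged livers both were below them, and in aged livers the sets overlapped. Pooled differences were small and imprecise, -0.23 ± 0.42 for middle-aged and -0.07 ± 0.42 for aged against young (adjusted p 0.812 and 0.964). Within set A middle-aged livers exceeded young ones by 0.98 ± 0.21 (adjusted p 0.000379), and within set B they were lower by 1.43 on the log2 scale (-1.43 ± 0.19, adjusted p 1.43e-11). The term for the difference between the sets was -2.40 ± 0.32 with an adjusted p of 1.77e-10, and over the 3 ages the age-by-set term had an adjusted p of 6.47e-10.

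The transporter Slc37a4 (ENSMUSG00000032114, chromosome 9, 44396852 to 44402968) carries glucose 6-phosphate to that enzyme. Normalised counts were 1535, 1546, 1418 and 1183 in young livers, 1440, 1525, 1116 and 1031 in middle-aged livers and 1116, 1336, 990 and 1192 in aged livers. The groups overlapped, with the lowest values among set B livers and aged livers. The differences from young, -0.15 ± 0.15 in middle-aged livers and -0.29 ± 0.15 in aged livers, had adjusted p of 0.596 and 0.294. Slc37a4 had the smallest p of the 9 genes for set B against set A at a common age effect, -0.29 ± 0.09 with an adjusted p of 0.102, in a comparison in which 0.361% of 14108 genes and 0 of the 9 passed with DESeq2; at an unadjusted p under 0.05 it was the only one of the 9, where 9.03% of genes were.

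Ppargc1a (ENSMUSG00000029167, chromosome 5, 51454250 to 51567726, minus strand), the coactivator that links fasting signals to Pck1 and G6pc, was the least abundant of the 9. It was counted at 125.3, 99.3, 47.4 and 47.8 normalised counts in young livers, 66.5, 64.6, 63.6 and 90.2 in middle-aged livers and 44.2, 27.0, 52.4 and 58.1 in aged livers. Young set A livers were the highest, young set B livers lay within the aged range, and every aged liver was below every middle-aged liver. The difference between aged and young of -0.81 ± 0.34 had an adjusted p of 0.181, and that between aged and middle-aged, -0.65 ± 0.34, an adjusted p of 0.533. Within set A, aged livers were lower than young ones by 1.66 on the log2 scale (-1.66 ± 0.42, adjusted p 0.0107), while set B gave 0.21 ± 0.45; the adjusted p of the difference was 0.0541.

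On the glycolytic side, Pklr (ENSMUSG00000041237, chromosome 3, 89136142 to 89146784) encodes the liver form of pyruvate kinase, which undoes the work of Pcx and Pck1. Livers of young mice had 1862, 1249, 1865 and 1416 normalised counts, middle-aged 3747, 3001, 2071 and 2111, and aged 1330, 2089, 2895 and 3108. Middle-aged livers were all above young livers, with set A highest, whereas aged livers spanned nearly the whole range with set B highest. Pklr rose by 0.77 ± 0.25 (log2, SE; 1.71-fold) from young to middle-aged with an adjusted p of 0.0401, and the aged against young difference of 0.56 ± 0.25 had an adjusted p of 0.225. The rise was 1.12 ± 0.25 in set A (adjusted p 0.000836) and 0.34 ± 0.14 in set B (0.203). From young to aged it was 0.14 ± 0.25 in set A (adjusted p 1.0) and 0.87 ± 0.14 in set B (1.34e-07), with an adjusted p of 0.538 between the sets. Between middle-aged and aged livers the sets went opposite ways, -0.98 ± 0.25 in set A and 0.53 ± 0.14 in set B, and the difference of 1.50 ± 0.32 had an adjusted p of 0.0008. Its adjusted p for middle-aged against young was 0.177 without young replicate 2, 0.102 without young replicate 4, 0.145 without middle-aged replicate 1, 0.113 without middle-aged replicate 2 and 0.113 with edgeR; that for aged against young became 0.0118 without aged replicate 1. The annotation of Pklr shares 711 exonic bases with Hcn3 on the other strand, and Hcn3 had 1385 counts in all 12 livers together; the strand setting of the counting is not given in the sources used here.

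Gckr (ENSMUSG00000059434, chromosome 5, 31297443 to 31327314), whose product restrains the first step of glucose use when glucose is low, was among the steadiest. Its counts ran 1258, 1305, 1095 and 1282 in young livers, 1455, 1572, 1267 and 1258 in middle-aged livers and 1224, 1385, 1381 and 1468 in aged livers. All groups overlapped. The differences from young were 0.17 ± 0.10 at 12 months and 0.14 ± 0.10 at 18 months (adjusted p 0.315 and 0.522), with 95% intervals of -0.03 to 0.36 and -0.05 to 0.34.

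Slc2a2 (ENSMUSG00000027690, chromosome 3, 28697903 to 28731359) encodes GLUT2, the glucose carrier of the hepatocyte membrane. It was counted at 2553, 1607, 1899 and 1832 in young livers, 2765, 3398, 2538 and 2689 in middle-aged livers and 1632, 2444, 2841 and 2853 in aged livers. Only young replicate 1 reached the middle-aged range, and aged replicate 1 was at the level of the low young livers. The difference between middle-aged and young of 0.53 ± 0.18 (1.44-fold) had an adjusted p of 0.0559, close to the threshold but not past it. It was 0.57 ± 0.25 in set A and 0.48 ± 0.12 in set B (adjusted p 0.372 and 0.00231), and passed without young replicate 1 (0.00574), aged replicate 1 (0.00525) or aged replicate 3 (0.0481). Aged livers differed from young by 0.31 ± 0.18 (adjusted p 0.428), which became 0.0324 without aged replicate 1. That difference was -0.03 ± 0.25 in set A (adjusted p 1.0) and 0.61 ± 0.12 in set B (1.25e-05), and the test between the sets gave an adjusted p of 0.652.

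**Figure D2:**
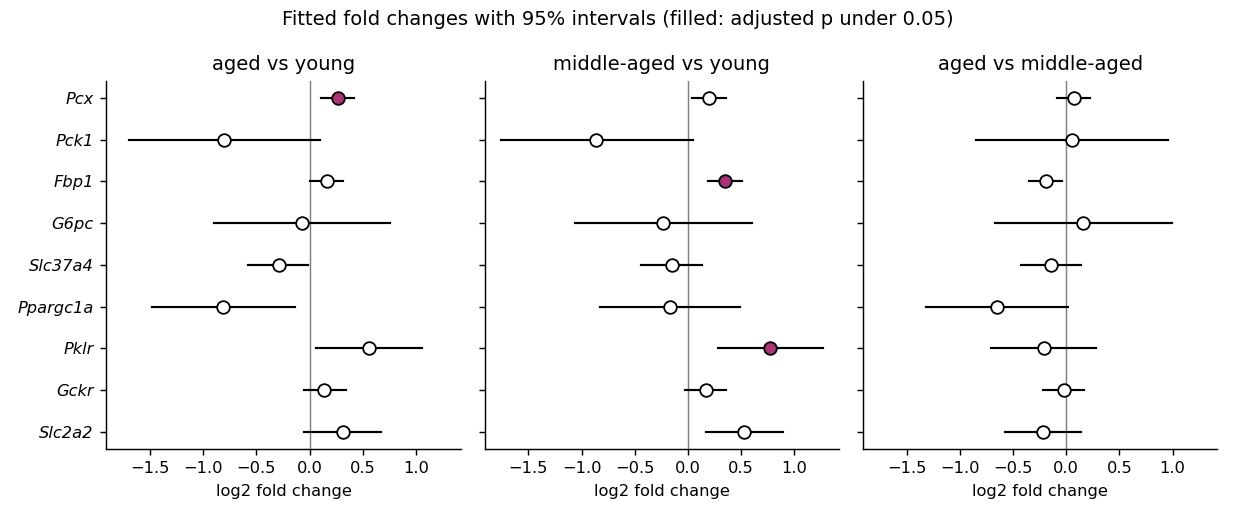
Fitted log2 fold change (horizontal axes) of each gene for the 3 pairs of ages, with 95% intervals over 4 livers per age and filled points where the adjusted p was under 0.05. The filled points are Pcx for aged vs young and Fbp1 and Pklr for middle-aged vs young; the widest intervals belong to Pck1 and G6pc.

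Groups that did not overlap were Pcx for aged against young (1 of 9, where 7.53% of genes did not overlap), Pcx, Fbp1 and Pklr for middle-aged against young (3 of 9, against 16.0%), and Ppargc1a for aged against middle-aged (1 of 9, against 6.55%). The median log2 fold change of the 9 genes was 0.14, 0.17 and -0.14 in these comparisons, in the same order, beside medians of all tested genes between 0.0 and 0.007.

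Livers of the same age differed far more in some of these genes than in others. The SD of log2 values within an age, pooled over the 3 ages, was 0.70 for Pck1, 0.61 for G6pc, 0.51 for Ppargc1a and 0.44 for Pklr. These exceeded the SD of 98.0, 97.2, 96.0 and 93.9% of the 8888 genes whose mean normalised count was 50 or more, and whose median SD was 0.19. Those genes were not matched for level, and Ppargc1a, at a mean of 65.54 normalised counts, lay near the lower limit. Fbp1 and Pcx were at 0.10, above only 7.4 and 6.8% of genes, and Gckr at 0.13, above 18.4%; Slc2a2 (0.29) and Slc37a4 (0.22) lay between. Pcx and Fbp1, which passed the age tests at fold changes of 1.2 and 1.27, were thus the genes with the least spread among single animals, while Pck1 and Ppargc1a, with fold changes of 0.57 for aged against young, did not pass. Passing did not follow spread throughout. Pklr, at an SD of 0.44, passed for middle-aged against young livers (1.71-fold), and Gckr, at 0.13, passed in no comparison.

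**Figure D3:**
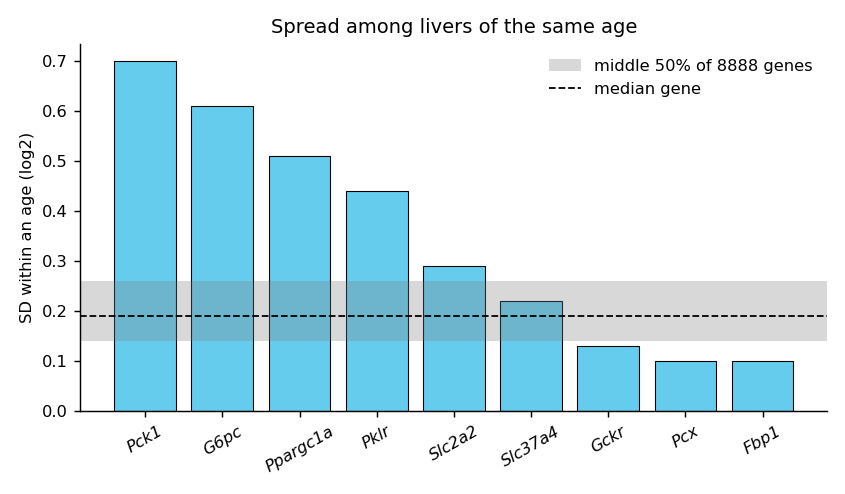
SD of log2(normalised count + 1) among livers of the same age (vertical axis, pooled over 3 ages) for the 9 genes, with the median and the middle 50% of 8888 genes as a dashed line and a grey band. Pck1, G6pc, Ppargc1a and Pklr stand above the band, and Gckr, Pcx and Fbp1 below it.

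In a fit with an age-by-set term, 2 of 9 genes passed (G6pc and Pklr, the latter with an adjusted p of 0.00234), where 1.6% of 11351 genes passed. By pair of ages, the sets differed for 1 of 9 in middle-aged against young (G6pc; 0.423% of 13005 genes), for 2 of 9 in aged against middle-aged (G6pc with 1.41 ± 0.32 and adjusted p 0.00217, and Pklr; 0.996% of 12454 genes) and for 0 of 9 in aged against young with DESeq2 (0.732% of 10799 genes). In the last comparison 5 of 9 had an unadjusted p under 0.05, namely Pck1, G6pc, Ppargc1a, Pklr and Slc2a2, as did 6.99% of genes. From the 19 listed clock genes, 1 transcript that moves with time of day was read beside these genes. It need not stand for the others. Arntl, a core clock activator, was at 64.7 and 58.6 normalised counts in young set A against 154.0 and 135.7 in young set B, and at 106.4 and 121.4 against 249.1 and 227.9 in aged livers, but at 34.8 and 70.9 against 88.3 and 44.1 in middle-aged livers. Its part in the set differences of G6pc and Pklr was not tested.

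**Figure D4:**
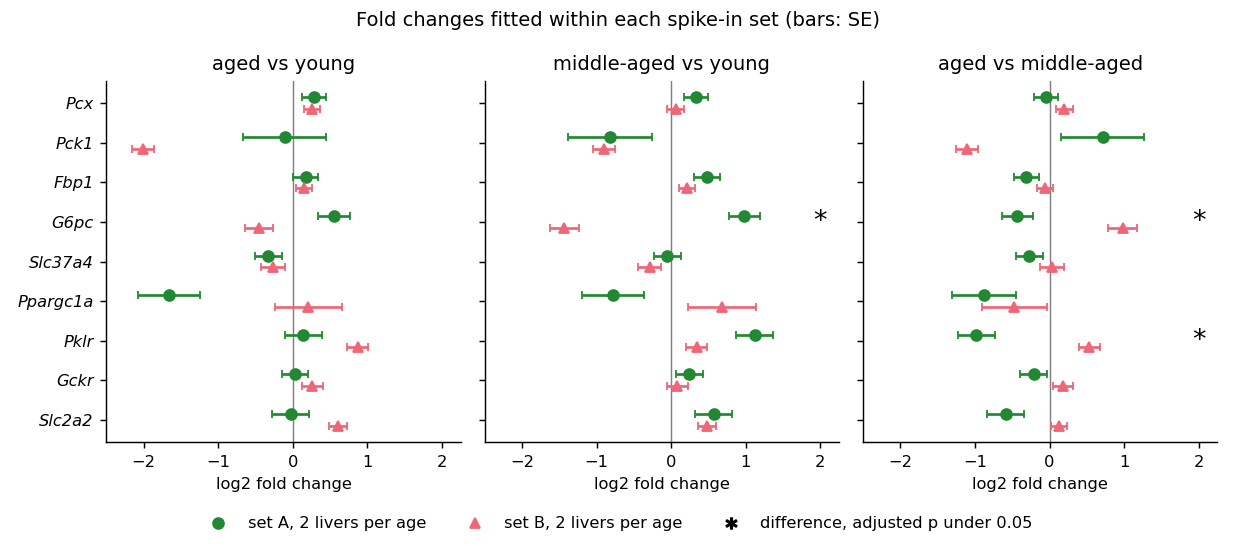
Log2 fold change (horizontal axes) of the 9 genes fitted within set A (circles) and within set B (triangles), 2 livers per age in each, with bars for the SE; asterisks mark differences between the sets with an adjusted p under 0.05. For G6pc the 2 sets lie on opposite sides of 0 in every panel, with asterisks for middle-aged vs young and aged vs middle-aged, and Pklr has an asterisk for aged vs middle-aged.

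Ratios of opposed or successive steps within each liver do not depend on the scaling between libraries. Pck1 per Pklr, both per kilobase, was 6.42, 17.4, 9.41 and 13.3 in young livers, 1.67, 4.28, 5.5 and 3.91 in middle-aged livers and 9.51, 8.86, 1.75 and 1.29 in aged livers. All young livers had a higher ratio than all middle-aged livers, and the aged livers fell into a set A pair at the young level and a set B pair near the lowest middle-aged liver. G6pc per Slc37a4, the phosphatase and its transporter, was 1.09, 1.08, 3.37 and 2.56 in young livers, 2.21, 2.23, 1.51 and 1.2 in middle-aged livers and 1.75, 2.19, 2.92 and 2.38 in aged livers, so that this pair too varied along the sets in young and middle-aged livers.

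**Figure D5:**
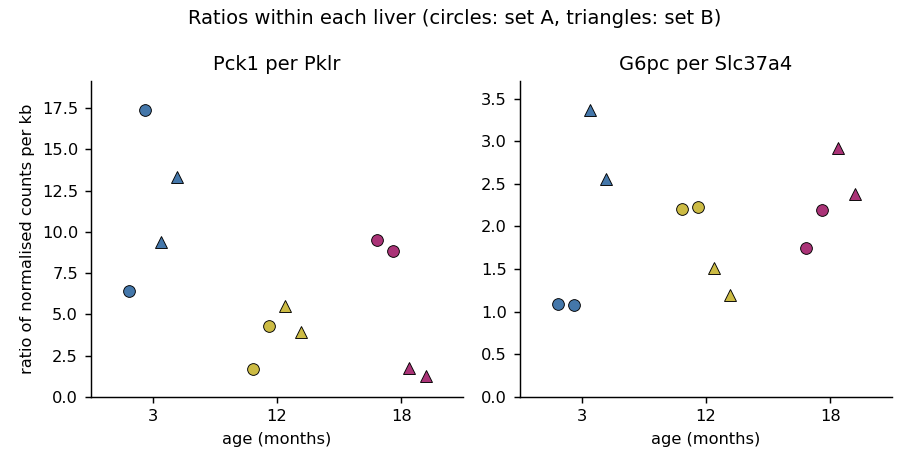
Ratio of normalised counts per kilobase (vertical axes, from 0) in each of 12 livers at 3, 12 and 18 months, for Pck1 per Pklr and G6pc per Slc37a4. Pck1 per Pklr lies between 6.42 and 17.4 in young and between 1.67 and 5.5 in middle-aged livers.

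Over the 12 livers, Pklr and Slc2a2 had the most similar patterns among the 9 genes, with a Pearson r of 0.88 between log2 values (0.81 after subtracting the age means), and Pck1 and Pklr the most opposed, with -0.76 (-0.67). Pck1 and G6pc, often named together as hormone-controlled genes, had an r of 0.0 (-0.03 within ages), and Ppargc1a and G6pc -0.58 (-0.65). These correlations describe 12 livers that share ages, sets and library composition. Among 8888 genes the closest patterns were those of C6, Apex2 and Pim3 for Pck1 (r of 0.889, 0.888 and 0.877), of Ticam1, Zfp750 and L3mbtl2 for G6pc (0.853, 0.852 and 0.851) and of Zcchc14, Asah2 and Slc35a3 for Slc2a2 (0.986, 0.968 and 0.964). For Pklr they were Nmrk1, Fam8a1 and Miga2 (0.965, 0.951 and 0.951), for Fbp1 Cask, Slc25a21 and Prps2 (0.931, 0.929 and 0.922), and for Pcx Acot4, Hsd17b11 and Cd1d1 (0.945, 0.918 and 0.915). Nlrc5, Dhcr7 and Gramd1c were closest to Ppargc1a (0.885, 0.879 and 0.866), Nhlrc3, Elf2 and Dazap1 to Gckr (0.872, 0.859 and 0.857), and Ppp2r3c, Krcc1 and Tepsin to Slc37a4 (0.915, 0.891 and 0.885).

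Other isoforms of the same steps were far lower in these livers and did not pass the test at any age. The mitochondrial carboxykinase Pck2 was at 25.33 ± 7.261, 27.46 ± 17.92 and 21.0 ± 9.534 normalised counts in young, middle-aged and aged livers (SD, n = 4), so that Pck1 exceeded it 361-fold to 6620-fold per kilobase. The highest ratio came from aged replicate 2, where Pck2 had only 7 reads, and the next highest was 2570-fold. The ubiquitous phosphatase G6pc3 was at 36.67 ± 7.103, 35.71 ± 7.779 and 32.59 ± 6.389, and the muscle and fetal pyruvate kinase Pkm at 263.7 ± 41.79, 255.1 ± 88.73 and 254.8 ± 56.5. Hk1 had at most 68.0, Hk2 at most 28.1 and Hk3 at most 54.7 normalised counts in any liver, and Fbp2, G6pc2 and Hkdc1 at most 2.6, so that no change in these last 3 was detectable at this depth. The glucagon receptor Gcgr, the insulin-inhibited factor Foxo1 and the glucose-sensing factor Mlxipl had adjusted p of at least 0.421 in all 3 comparisons.

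Ppargc1b, the paralogue of Ppargc1a, was at 22.3, 28.0, 23.7 and 29.3 normalised counts in young livers, 54.6, 51.2, 48.6 and 80.2 in middle-aged livers and 33.1, 30.8, 24.5 and 17.0 in aged livers. Middle-aged livers were thus above every other liver. It rose by 1.18 ± 0.29 (log2, SE) from young to middle-aged (adjusted p 0.00278) and fell by 1.16 from middle-aged to aged livers (SE 0.28, adjusted p 0.00763), a course that Ppargc1a itself, with -0.17 ± 0.34 and -0.65 ± 0.34, did not show; the difference between the paralogues was not tested.

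Of 23 tested genes of the hexokinase step and glycolysis, 4 fell and 0 rose from young to aged livers in DESeq2, where 3.58% of all genes tested were called. The 4 were Pfkfb3 (-1.81 ± 0.33, adjusted p 2.43e-05) and Pfkfb1 (-0.54 ± 0.17, 0.0486), which set the level of the glycolytic activator fructose 2,6-bisphosphate, Pgk1 (-0.24 ± 0.07, 0.0165), an enzyme used in both directions, and Bpgm (-1.11 ± 0.34, 0.0349), known for its role in red cells. From young to middle-aged only Pgk1 passed of 22 (-0.27 ± 0.07, adjusted p 0.00358), and between aged and middle-aged livers 0 of 21 passed with DESeq2. The list's median log2 fold change was -0.13, -0.01 and -0.05 in the 3 comparisons.

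Among 21 tested genes of the other gluconeogenic steps and of the fate of pyruvate, Pdk1, a kinase that shuts pyruvate dehydrogenase, rose from young to aged livers (0.74 ± 0.21, adjusted p 0.0176) and to middle-aged livers (0.81 ± 0.21, 0.00516). The alanine transaminase Gpt2 rose from young to middle-aged livers (0.46 ± 0.13, adjusted p 0.012), 2 of 20 tested there in all. Of 19 carriers of hexoses, lactate, pyruvate and amino acids, 5 rose from young to middle-aged livers and 0 fell, where 3.51% of all genes tested rose. These were the monocarboxylate carrier Slc16a7 (0.79 ± 0.26, adjusted p 0.0446), the dicarboxylate carrier Slc25a10 (0.44 ± 0.14, 0.0245), the urate and hexose carrier Slc2a9 (0.46 ± 0.12, 0.00429), the glutamine carrier Slc38a3 (0.39 ± 0.13, 0.0383) and the alanine carrier Slc38a4 (0.39 ± 0.11, 0.00967). The amino acid carriers Slc38a3 and Slc38a4 fell again from middle-aged to aged livers, with -0.57 ± 0.13 (adjusted p 0.0028) and -0.40 ± 0.11 (0.0249), 2 of 18 tested; in aged against young livers Slc16a7 alone of 19 passed the test (0.95 ± 0.26, 0.0163).

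Of 50 tested regulators of these genes, 7 rose from young to middle-aged livers and 0 fell (14.0% called, against 6.41% of all genes tested). They were Ppargc1b, the lipogenic factor Srebf1 (0.81 ± 0.20, adjusted p 0.00382), the insulin receptor Insr (0.49 ± 0.16, 0.0314), the glucocorticoid receptor Nr3c1 (0.39 ± 0.12, 0.0306), the phosphodiesterase Pde4b, which degrades cyclic AMP (0.73 ± 0.25, 0.0487), the fatty acid receptor Ppara (0.76 ± 0.25, 0.0393) and the orphan receptor Nr2f2 (0.56 ± 0.12, 0.000642). In aged against young livers Nr2f2 rose (0.48 ± 0.12, adjusted p 0.00663) and Trib1 fell (-0.42 ± 0.13, 0.0328), 2 of 51. In aged against middle-aged livers Ppargc1b and the forkhead factor Foxo3 (-0.56 ± 0.12, adjusted p 0.0028) fell, 2 of 49.

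Genes induced by fasting and by feeding were read beside these, since feeding state at collection is not given in the sources used here. Of 11 tested fasting-induced genes, 4 rose from young to aged livers and 1 fell, where 3.58% of all genes tested were called. The 4 were the fatty acid hydroxylases Cyp4a14 (20.1, 112.7, 3451.9 and 1204.1 normalised counts in aged against at most 34.0 in young livers, adjusted p 0.00022) and Cyp4a10 (adjusted p 0.00155), the secreted hormone Fgf21 (9.0, 17.3, 33.2 and 15.2 normalised counts in aged livers and at most 1.2 in young ones, adjusted p 0.00213) and the lipid droplet coat gene Plin2 (0.55 ± 0.15, 0.014). The gene that fell was Igfbp1, which insulin represses as it does Pck1, from 260.1, 569.3, 482.2 and 428.6 normalised counts in young livers to 36.7, 66.4, 24.7 and 41.1 in middle-aged (-3.36 ± 0.60, adjusted p 5.58e-06) and 181.6, 77.1, 119.7 and 16.1 in aged livers (-2.14 ± 0.59, 0.0147). No older liver reached the lowest young one. In middle-aged against young livers Igfbp1 alone passed of 10, and in aged against middle-aged livers 0 of 10 passed with DESeq2. Of 12 and 10 tested feeding-induced genes, 0 passed with DESeq2 in aged against young or in aged against middle-aged livers, and in middle-aged against young Srebf1 rose and the immediate early gene Egr1 fell (-3.49 ± 0.73, adjusted p 0.000281), 2 of 10. Of these 10, 8 had a positive log2 fold change, with a median of 0.69. The summed level of all 12, most of it from Scd1, was 59571.1 to 108645.7 normalised counts in young livers. Middle-aged livers lay above this at 134446.8 to 227703.7, and aged livers overlapped both at 77455.7 to 201433.2.

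Time of day was not given either, and clock genes differed between the ages in number. Of 17 tested clock genes, 3 rose and 6 fell from middle-aged to aged livers (52.9% called, against 1.14% of all genes tested). From young to middle-aged livers 6 of 18 rose and 1 fell (38.9% called, against 6.41%), whereas from young to aged livers Cry1 alone of 19 rose (0.91 ± 0.26, adjusted p 0.0188). Dbp, an output gene with a strong daily rhythm, was at 187.9, 220.3, 173.0 and 129.8 normalised counts in young livers, 908.5, 657.2, 503.3 and 686.5 in middle-aged livers and 172.6, 157.0, 18.4 and 52.7 in aged livers. Middle-aged livers lay above all others in this gene. The part of sampling time and of feeding in the differences of Fbp1, Pklr and Slc2a2 between middle-aged and young livers was not tested.

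Position along the liver lobule was followed with 11 periportal and 11 pericentral markers, since gluconeogenesis is strongest near the portal vein. In aged against young livers the periportal Pigr rose (0.55 ± 0.09, adjusted p 7.12e-07) and Arg1 fell (-0.32 ± 0.10, 0.0312), and the pericentral Cyp1a2 fell (-0.76 ± 0.16, 0.00037); the other 9 and 10 did not pass. In middle-aged against young livers Pigr rose (0.35 ± 0.09, adjusted p 0.00437) and Cyp1a2 fell (-0.58 ± 0.16, 0.00959), and in aged against middle-aged livers 0 of 11 and 0 of 10 passed with DESeq2. In bulk tissue fewer cells of a kind and less RNA per cell cannot be told apart. The hepatocyte markers gave 0 of 6 calls with DESeq2 in each comparison, with median log2 fold changes of -0.13, -0.10 and 0.04. Among markers of other liver cells, endothelial and stellate markers gave 0 of 6 calls each with DESeq2 in every comparison. Of 8 Kupffer cell and macrophage markers Marco alone passed, higher in aged than in young livers (2.46 ± 0.69, adjusted p 0.0178). Of 4 tested cholangiocyte markers Sox9 alone passed, higher in aged livers than in young (0.86 ± 0.24, adjusted p 0.0169) and middle-aged ones (0.95 ± 0.24, 0.0117). The summed levels overlapped between ages, at 2469.0 to 4591.3 normalised counts in young livers, 2143.1 to 2914.8 in middle-aged livers and 2509.8 to 4475.9 in aged livers for the macrophage list, and at 280.2 to 351.5, 120.1 to 448.0 and 223.5 to 408.1 for the cholangiocyte list. Their part in the rise of Pcx from young to aged livers was not tested.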

How the data were processed

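Liver RNA-seq libraries of 12 mice were grouped by age (3, 12 and 18 months, 4 each) from their titles. The authors deposited whole-number read counts per gene, not normalised. Per the labels, total RNA was extracted with a column kit and a directional library kit was used, and the submitters' processing notes name STAR 2.5.2b, SAMtools 1.9, featureCounts, R 3.6.3, edgeR 3.28.1 and DESeq2 1.26.0 with mm10 and GRCm38; the annotation release is not given in the sources used here. The series' own text gives 3 replicates per age and the labels list 4; all 12 were used.

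The 9 genes, the gene lists, the motifs and the alternatives were chosen with earlier results of these data known, and list counts are descriptions. Some list genes are not reported here and were left out of the list counts. All 9 genes, the list genes called in a comparison, isoforms of the same steps and, for each gene, the 3 genes with the highest Pearson r were named. Of 53465 identifiers, 53360 were found in GENCODE M21. The 92 spike-ins were left out, and 28449 genes with at least 1 count were fitted, of which independent filtering left the numbers given as tested.

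DESeq2 1.42.0 in R 4.3.3 was fitted once to all 12 livers with 1 term for age (size factors by median of ratios, Wald test for pairs, likelihood ratio test for 3 ages, Benjamini-Hochberg adjustment, threshold 0.05), following the study's stated tool and threshold. Normalised counts are counts divided by size factors. Log2 values for spread and correlation used a pseudocount of 1. Floors of 3 counts cover counting error only. Values per kilobase used the union of annotated exons. Differences between the spike-in sets were tested as an age-by-set term, chosen after seeing the data. The tests were tried on simulated counts of 28449 genes. Alternatives were edgeR 4.0.16 quasi-likelihood, limma 3.58.1 voom with quality weights, TMM, total-count and spike-in scaling, a filter of 10 counts in 4 samples, other independent filtering, 2 groups only, a replicate block, the set as covariate, each set alone, and leaving out livers. No 2 replicates agreed within sampling noise (smallest chi-square per gene 12.0).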

Additional observations from a re-analysis of the deposited data

Results flagged for a closer look

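G6pc in aged replicate 1, at 1646.9 normalised counts, stood apart from the other 3 aged livers, which lay between 2396 and 2471. Ppargc1a in middle-aged replicate 4, at 90.2, stood apart from the other 3 middle-aged livers, between 63.6 and 66.5. These were 2 of 27 groups of 4 livers in which the gap of an extreme liver to its neighbour exceeded Dixon's 95% critical share of the group's range, where chance gives about 1.35.

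Of 27 age differences compared between the spike-in sets, 3 differed with a DESeq2 adjusted p under 0.05. G6pc differed by -2.40 (set B minus set A, log2) for middle-aged against young livers, with 2 livers per age in each set moving up in set A and down in set B, and by 1.41 for aged against middle-aged livers. Pklr differed by 1.50 for aged against middle-aged livers, going down in set A and up in set B. What the sets share beyond their spike-ins is not given in the labels, and the part of sampling time was not tested.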

How the results depend on the processing

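Counts are given in the order aged against young, middle-aged against young, aged against middle-aged and across the 3 ages, where DESeq2 called 484, 727, 117 and 865 genes and 1, 2, 0 and 2 of the 9. edgeR called 172, 280, 13 and 234 genes and 0 of the 9 in each. limma-voom called 58 genes for aged against middle-aged and 0 of the 9 for aged against young and across ages. Without independent filtering the counts were 321, 443 and 62 genes and 0, 1, 0 and 1 of the 9. Fits of 2 groups gave 290 and 1166 genes and 0 and 4 of the 9 in the first 2 comparisons. Total count scaling, which moved the median gene by 0.124 and 0.117 relative to young, called 787 genes (648 higher) for aged against young, where DESeq2 called 253 of 484 as higher, and 1000 and 1155 genes with 4 of the 9 each for middle-aged against young and across ages; spike-in scaling moved the median by 1.165, 1.472 and -0.307, and values under it are relative to that. A filter of 10 counts in 4 samples left 1 of the 9 across ages. Without young replicate 3 and middle-aged replicate 1 the counts were 302, 271, 60 and 464 genes and 0 of the 9 in each.

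Set A alone called 137, 251, 34 and 270 genes and 1, 2, 1 and 3 of the 9; set B alone called 482, 305, 307 and 637 genes and 3, 3, 3 and 4 of the 9. Leaving out 1 liver gave 237 to 1291, 345 to 1095, 45 to 198 and 496 to 1637 genes and 0 to 3, 1 to 3, 0 and 1 to 4 of the 9; the highest counts came without aged replicate 1. Why these counts moved was not tested.

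The replicate block gave 385, 426 and 451 genes with DESeq2 in the last 3 comparisons and 0, 1, 0 and 0 of the 9; with edgeR it gave 72, 119, 14 and 92 genes and 0 of the 9. The replicate numbers belong to different animals, same-numbered livers correlated between -0.303 and 0.159, and 1 of 12 livers was most alike with its own number, so the numbers were not treated as pairs.

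Directions turned only for differences that did not pass in the 12 livers. In fits of 1 set, with 2 livers per age, 3 of the turned values nevertheless passed. They were G6pc from young to middle-aged in set A (adjusted p 0.000379) and, for aged against middle-aged livers in set B, Pck1 (9.22e-11) and Pklr (0.0111). G6pc became 0.02 with total count scaling, 0.55 in set A and 0.32 without young replicate 3 and middle-aged replicate 1 for aged against young (-0.25 to 0.32 leaving out 1 liver), 0.98 in set A for middle-aged against young (-0.46 to 0.16) and -0.43 in set A for aged against middle-aged (-0.06 to 0.38). Ppargc1a became 0.21 in set B for aged against young, and 0.12 with limma-voom and 0.68 in set B for middle-aged against young (-0.35 to 0.14). Slc2a2 was -0.03 in set A for aged against young. For aged against middle-aged livers, Pck1 became -0.50 with limma-voom, -0.01 with spike-in scaling, -0.06 with the replicate block by DESeq2 and by edgeR, -0.10 with the set as covariate, -1.11 in set B and -0.10 without the 2 livers named above (-0.42 to 0.32); Pcx became -0.05 in set A; Gckr became 0.02 with limma-voom, 0.18 in set B and 0.00 without those 2 livers (-0.07 to 0.04); Pklr became 0.53, Slc2a2 0.13 and Slc37a4 0.03 in set B. Depth limits Ppargc1a most, with 28 reads in the liver where it was lowest.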
